A study of Mus musculus with 2 samples.

Results

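The genes described here are neighbours of the tripartite motif (TRIM) family on mouse chromosome 7: Trim30a, Trim30b, Trim30c, Trim30d, Trim12a, Trim12c, Trim34a and Trim34b. They were taken by symbol, 8 of the 55536 annotated genes measured, and all 8 have values in every table used. The study sequenced rRNA-depleted total RNA from the nucleoplasm of macrophages that had been grown in culture from the bone marrow of C57BL/6J mice. All cells received Lipid A (the lipopolysaccharide moiety sensed by Toll-like receptor 4) at 100 ng/ml during 12 h, then had 12 h after it was washed out, and were collected at 0 min of restimulation. There is 1 group of 2 biological replicates, made from 1 µg (replicate 1) and 500 ng (replicate 2) of RNA, so no comparison between conditions was possible, and replicate number and RNA amount cannot be told apart. Expected counts over annotated genes summed to 22907877 and 18612405. Nothing in the labels says that the replicates came from separate animals, and both carry the same donor record, so the SDs given may be partly technical.

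TRIM proteins carry a RING domain, which lets many of them act as E3 ubiquitin ligases, followed by a B-box and a coiled coil, and many end in a SPRY domain that binds a target. A number of them are induced by interferon and act in antiviral defence or in the control of inflammatory signalling. Trim30a is known in mouse macrophages as a brake on Toll-like receptor signalling that promotes loss of TAB2 and TAB3, the adaptors of the kinase TAK1. Trim30d, also called Trim79, is an interferon-induced antiviral factor. Trim12a and Trim12c are mouse relatives of the primate restriction factor TRIM5, and Trim34a and Trim34b are the mouse counterparts of human TRIM34.

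The members are copies of one another to different degrees, and the coding starts below show this within each family. Each line gives the start of the member's longest annotated coding sequence (GENCODE release 21, 5′ to 3′), over the stretch that aligns with the first 60 coding bases of the first gene of its family; this is 60 bases for each gene but Trim30c, which has 63. Capitals mark bases that differ from, or are inserted relative to, that first gene.

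Trim30a: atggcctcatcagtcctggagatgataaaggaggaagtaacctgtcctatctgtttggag
Trim30d: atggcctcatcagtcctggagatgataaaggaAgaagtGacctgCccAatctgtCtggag
Trim30b: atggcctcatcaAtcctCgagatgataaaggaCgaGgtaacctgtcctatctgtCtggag
Trim30c: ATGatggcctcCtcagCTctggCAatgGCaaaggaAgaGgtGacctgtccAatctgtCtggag
Trim12a: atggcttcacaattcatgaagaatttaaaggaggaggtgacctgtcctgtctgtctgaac
Trim12c: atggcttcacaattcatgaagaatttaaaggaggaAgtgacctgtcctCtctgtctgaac
Trim34a: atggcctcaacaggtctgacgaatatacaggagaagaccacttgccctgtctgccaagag
Trim34b: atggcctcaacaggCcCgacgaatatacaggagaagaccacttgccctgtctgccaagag

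Over whole coding sequences, Trim34a and Trim34b shared 98.8% of 1455 aligned bases. Trim12a and Trim12c shared 96.4%, but only over 891 bases, since the longest coding sequence of Trim12a ends after 891 bases and that of Trim12c runs to 1491. Within the Trim30 family, Trim30a shared 90.2% with Trim30d, 83.2% with Trim30c and 88.3% with Trim30b, the last over 606 bases because the annotated coding sequence of Trim30b is only 609 bases long. Between families the identity was lower: 73.3% for Trim30a with Trim12c, 62.4% for Trim30a with Trim34a and 61.9% for Trim12c with Trim34a. Trim5, which lies in the same stretch of the chromosome, shared 97.1% with Trim12a and 96.6% with Trim12c, as much as these share with each other.

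**Figure D1:**
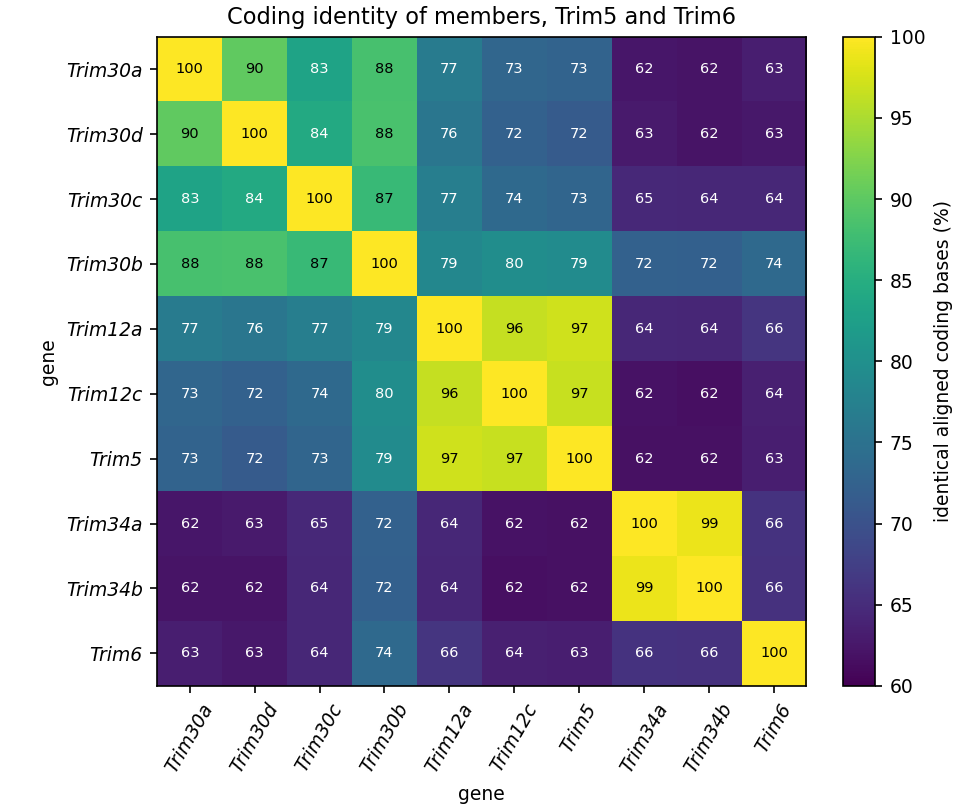
Identity of the longest coding sequences of the 8 members and of the neighbouring genes Trim5 and Trim6, as the percent of identical bases among aligned bases (colour and number in each cell). The Trim34 pair (98.8%), and Trim12a, Trim12c and Trim5 (96.4 to 97.1%), form the closest blocks, and the Trim30 genes a looser one.

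This likeness bears on every value below, because a read from a stretch that copies share can be given to either copy. Words of 31 bases in a gene's annotated transcripts were searched on both strands of the transcripts of other genes. Of these words, 68.5% for Trim34a, 69.0% for Trim34b and 48.1% for Trim12c also occur in another gene. For Trim34a, 48.7% occur in Trim34b and 21.4% in Gm47248, a gene annotated antisense to it, whose part depends on use of strand in counting. The share was 16.0% for Trim12a, 11.9% for Trim30a, 11.9% for Trim30d, 5.69% for Trim30c and 4.60% for Trim30b. With words of 100 bases, Trim34a still shared 39.0%, Trim34b 30.5%, Trim12c 8.05%, Trim30d 4.57%, Trim30a 4.41% and Trim12a 3.29%, while Trim30b and Trim30c shared 0%. By this measure values of the Trim34 pair are the least certain, and those of the Trim30 genes rest mostly on sequence of their own.

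The 8 genes lie within 263.4 kb of chromosome 7 (mm10, positions 104244457 to 104507849), 6 of them on the minus strand and Trim34a and Trim34b on the plus strand. In order along the chromosome, Trim34a (ENSMUSG00000056144.14) spans 104244457 to 104262234 and Trim12a (ENSMUSG00000066258.13) 104299894 to 104315466. Trim34b (ENSMUSG00000090215.9) spans 104329471 to 104336909 and Trim12c (ENSMUSG00000057143.15) 104338754 to 104353362. The Trim30 genes follow, with Trim30b (ENSMUSG00000052749.9) at 104355382 to 104369884 and Trim30c (ENSMUSG00000078616.2) at 104382065 to 104400837. Trim30a (ENSMUSG00000030921.17) spans 104409025 to 104465193, and Trim30d (ENSMUSG00000057596.13) closes the cluster at 104470014 to 104507849.

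**Figure D2:**
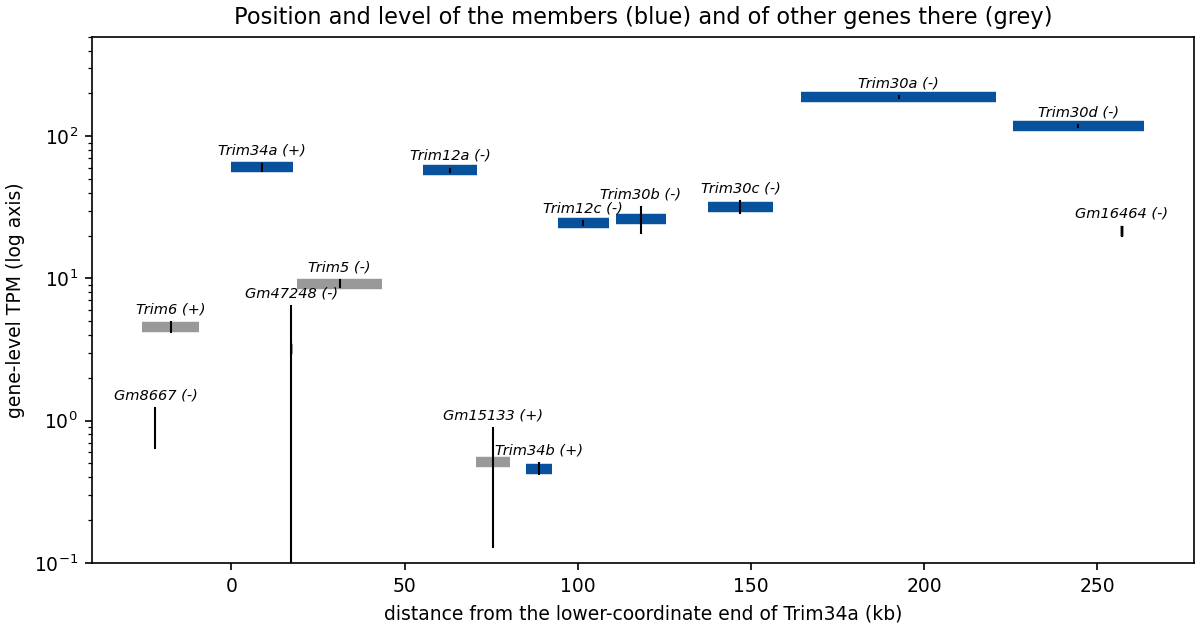
Gene-level level (mean TPM of the 2 libraries, log axis) of each gene against its position, in kb from the lower-coordinate end of Trim34a, for members (blue bars) and other genes there (grey bars), with the strand in brackets. Bars span the gene, thin vertical lines join the 2 libraries (running to the axis where a library is at 0), and genes at 0 in both libraries are not drawn. The 2 highest members, Trim30a and Trim30d, are adjacent at the right end, and Trim34b, at 0.46 TPM, lies between Trim12a and Trim12c.

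Levels are given as TPM, an abundance relative to everything counted in the same library, which accounts for gene length and so allows genes to be set side by side. Trim30a had 186.25 TPM in replicate 1 and 192.34 in replicate 2, a mean of 189.3 ± 4.31 (SD, n = 2), from expected counts of 17319 and 15972. This placed it 148th and 114th among 22028 protein-coding genes. Trim30d had 120.02 and 115.52 TPM (117.8 ± 3.18) and ranked 273rd and 249th. The SDs of these 2 Trim30 genes were small beside the distance between them, and Trim30a was the higher in both libraries.

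Trim30c had 34.92 and 28.70 TPM (31.8 ± 4.40), and Trim30b 31.62 and 20.82 (26.2 ± 7.64). The ranges of these 2 genes over the libraries overlapped, and Trim30b had the widest relative spread of the 4 Trim30 genes. The Trim30 family as a whole gave 71.9% ± 0.570 of the summed TPM of the 8 members, Trim30a alone 37.3% ± 2.26 and Trim30d 23.2% ± 0.250.

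Of the Trim12 pair, Trim12a had 59.15 and 56.42 TPM (57.8 ± 1.93) and Trim12c 25.13 and 23.59 (24.4 ± 1.09). The pair gave 16.2% ± 0.0172 of the summed TPM. Expected counts of these 2 genes were nearly equal, 2456 and 1925 for Trim12a against 2557 and 2039 for Trim12c, and TPM differs because the effective length is shorter for Trim12a (1430 and 1392 bases) than for Trim12c (3506 and 3525 bases).

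The Trim34 pair was the most unequal. Trim34a had 64.18 and 56.78 TPM (60.5 ± 5.23), ranking 619th and 628th among protein-coding genes. Trim34b had 0.50 and 0.42 TPM (0.460 ± 0.0566), from expected counts of 23.1 and 16.4, and was the only member below 1 TPM. Because the 2 genes share much of their transcript sequence, the split between them depends on how shared reads were assigned. The second quantification, a further deposited table made straight from the reads, also put Trim34a high (27.8 and 32.4 TPM) and Trim34b low (0.763 and 0.698).

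In order of mean level the members ran Trim30a, Trim30d, Trim34a, Trim12a, Trim30c, Trim30b, Trim12c and Trim34b. Neighbours in this order whose ranges overlapped were Trim34a with Trim12a, Trim30c with Trim30b, and Trim30b with Trim12c. The other neighbours were apart in both libraries, with Trim30d 1.95 times as high as Trim34a, Trim12a 1.82 times as high as Trim30c, and Trim12c 53.0 times as high as Trim34b. With protein-coding transcripts only, Trim12a had 30.57 and 27.40 TPM and was below Trim30c in both libraries. The second quantification turned 1 step of the order: Trim12a (36.7 and 47.6 TPM) was above Trim34a in both libraries. It also set Trim30b apart from Trim12c, left Trim30c and Trim30b overlapping, and gave Trim12c 19.1 times the level of Trim34b. It gave Trim30a 97.3 and 122.2 TPM and Trim30d 52.1 and 65.2, Trim30c 17.7 and 19.0, Trim30b 19.1 and 17.8, and Trim12c 11.5 and 16.5. Levels from it cannot be set directly against gene-level ones, since TPM is relative to all that each set of tables counts, but Trim30a gave nearly the same part of the members' sum, 37.5% ± 0.720.

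**Figure D3:**
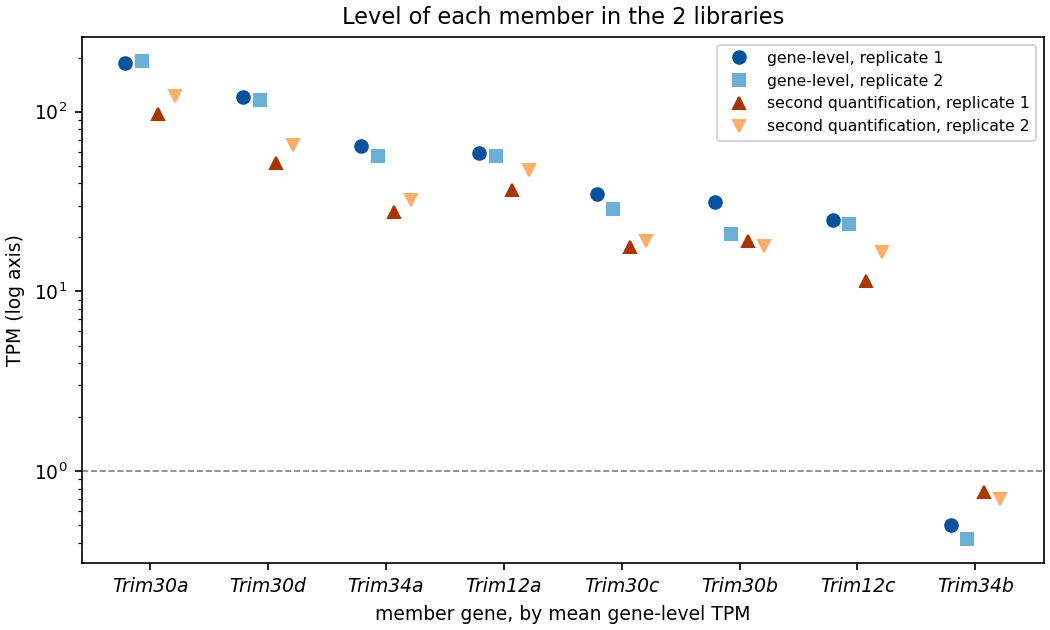
TPM of each member (log axis) in replicates 1 and 2, in the gene-level tables (blue) and in the second quantification (orange). Members stand in order of mean gene-level TPM and the dashed line marks 1 TPM; 7 members lie above 10 TPM in every library and both quantifications, and Trim34b lies below 1.

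In both libraries, 7 of the 8 members reached 1 TPM, against a background of 44.4% of protein-coding genes. Together the members summed to 521.77 and 494.59 TPM, 508.2 ± 19.2, or 0.179% ± 0.0159 of the summed TPM of all protein-coding genes. RNA in the nucleoplasm includes unspliced and newly made RNA, so these are nuclear levels, which need not follow levels in the whole cell. Markers of the labelled cell type were present: 8 of 8 macrophage markers had at least 10 TPM in both libraries, with summed levels of 3497 and 2852 TPM. All 11 markers of T cells, B cells, neutrophils, erythroid cells and stromal cells were below 1 TPM in both in the gene-level tables, with the highest sum for a cell type 0.57 TPM (neutrophils, replicate 1). In the second quantification 1 of the 2 T cell markers, Cd3d, exceeded 1 TPM in both libraries.

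Transcripts annotated without a coding sequence were unevenly spread over the cluster. GENCODE lists 26 transcripts for the 8 genes, and all those of Trim30c, Trim30d, Trim12c, Trim34a and Trim34b are protein-coding. In Trim12a, protein-coding transcripts held 50.1% ± 2.20 of the gene's transcript TPM, processed transcripts (spliced, with no open reading frame annotated) 30.7% ± 2.87 and retained-intron transcripts 19.2% ± 0.669. The retained-intron transcript Trim12a-205 is 3730 bases long and took 48.0% and 47.2% of the gene's expected counts, more than any other of its transcripts, while the 562-base Trim12a-206 took 6.58% and 8.17% of counts but 16.97 and 18.48 TPM.

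In Trim30a, the coding transcript Trim30a-201 had 167.98 and 182.90 TPM, and protein-coding transcripts held 92.6% ± 3.47. The rest was mostly Trim30a-203, a retained-intron transcript of 314 bases with 14.19 and 8.64 TPM. It had 37 and 22 expected counts, which are 0.214% and 0.138% of the counts of Trim30a. Its part of the gene's TPM was 7.62% and 4.49% in the gene-level set and 27.7% and 18.9% in the second quantification, so a short transcript with few reads moves the transcript makeup of Trim30a while hardly touching its counts.

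In Trim30b, retained-intron transcripts held 25.0% ± 2.37. Trim30b-202, at 6.78 and 2.81 TPM, made most of it. Trim30b-205, annotated as protein-coding, and Trim30b-206, annotated as retained intron, have the same 2771 bases and were given equal counts (121.32 in replicate 1 and 128.03 in replicate 2), so the tables cannot tell them apart. Counting both as protein-coding lowered the retained-intron share to 17.5%, an alternative added after the data were seen.

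Of the genes with coding transcripts only, Trim30d and Trim34a had reads split over isoforms. Trim30d-202 had 76.70 and 71.62 TPM and Trim30d-201 43.31 and 43.77. Trim34a-203 had 34.69 and 31.14 and Trim34a-201 26.83 and 23.80. Trim30c has 1 annotated transcript, and all counts of Trim12c were on Trim12c-201 in both quantifications. For Trim34b, the gene-level set put every count on Trim34b-201, whereas the second quantification gave 85.8% and 77.4% of the gene's TPM to Trim34b-202. Over the cluster, retained-intron transcripts held 5.71% ± 1.20 of transcript TPM, against 18.0% and 16.5% over all protein-coding genes in replicates 1 and 2. In the second quantification they held 14.5% and 10.9% over the cluster, against 21.5% and 20.0%. By annotation, Trim30c, Trim30d, Trim12c, Trim34a and Trim34b can add nothing to the cluster's share. In the gene-level set retained-intron transcripts held 6.06% in Trim30a, 19.2% in Trim12a and 25.0% in Trim30b.

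**Figure D4:**
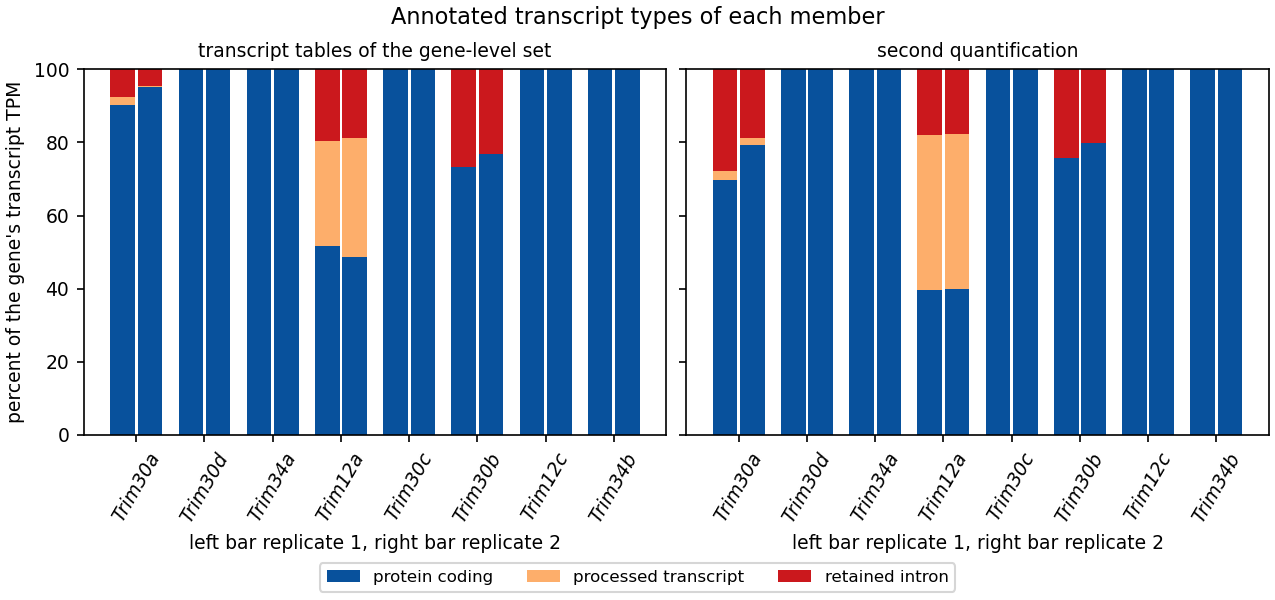
Percent of each member's transcript TPM in transcripts annotated as protein coding, processed transcript or retained intron, in the transcript tables of the gene-level set (left panel) and in the second quantification (right panel), with replicate 1 as the left bar of each pair. Trim30a, Trim12a and Trim30b are the members with other than protein-coding transcripts, and the retained-intron part of Trim30a is larger in the second quantification.

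Between the replicates no member moved far. Log2 ratios of replicate 2 over replicate 1 were computed on counts scaled by library composition, with an exact 95% interval that covers counting error only. Trim30a had a log2 ratio of 0.14 (interval 0.11 to 0.17) and was the only member with a ratio above 0. Trim30d, at -0.05 (-0.09 to -0.00), and Trim12c, at -0.07 (-0.16 to 0.01), were nearly level. Trim12a stood at -0.10 (-0.18 to -0.01), Trim34a at -0.15 (-0.22 to -0.08) and Trim30c at -0.25 (-0.37 to -0.14). The lowest was Trim30b at -0.63 (-0.71 to -0.54), and its interval did not reach that of any other member except Trim34b. Trim34b, with few counts, had -0.26 and an interval from -1.29 to 0.72, so a difference of up to about its interval was not detectable at this depth.

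Of the 7 members whose mean count reached 100, 0 had an absolute log2 ratio of 1 or more, against a background of 2.00% of 10198 genes. The median of the 7 was -0.10, and -0.01 over all 10198 genes. With 1 library on each side no test was made, and these values describe how far the 2 libraries stand apart.

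**Figure D5:**
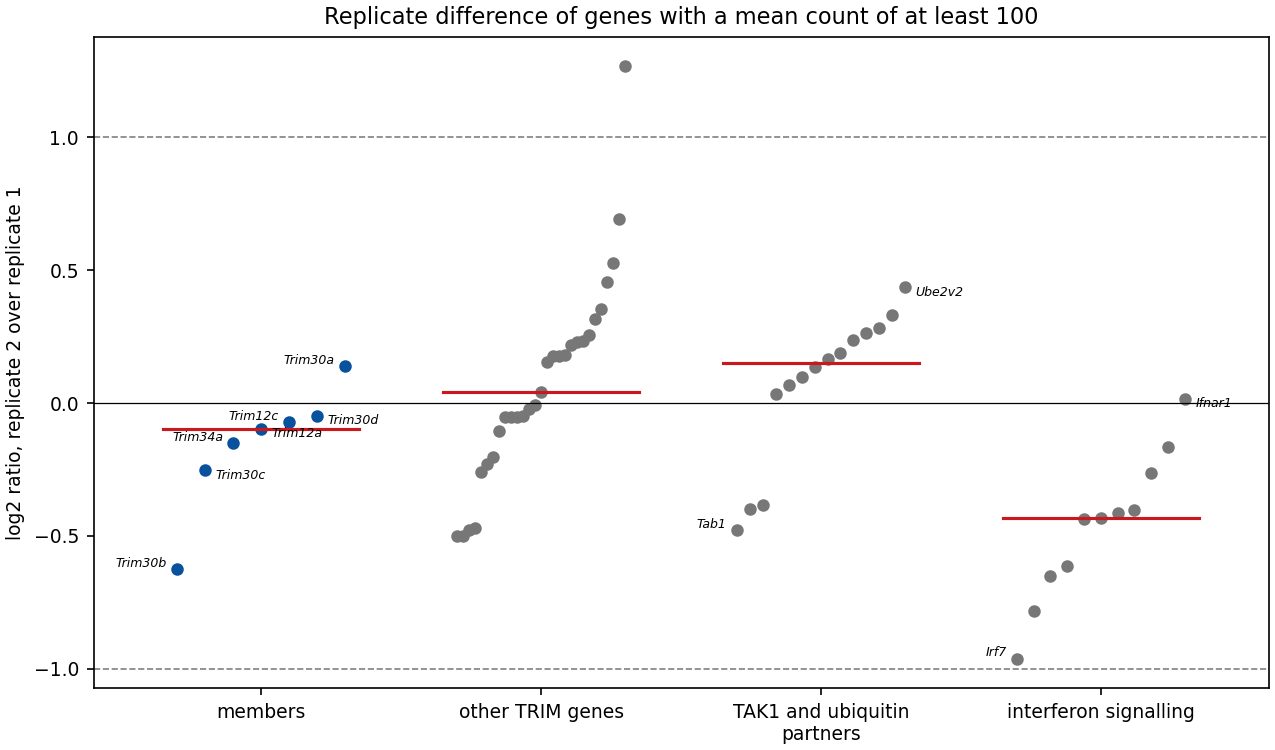
Log2 ratio of replicate 2 over replicate 1 (1 point a gene, for genes whose mean count reached 100) for the members (blue) and for 3 other gene lists (grey), with the median of each list in red, names for the members and for the lowest and highest gene of 2 lists, and dashed lines at an absolute log2 ratio of 1. Members lie from -0.63 (Trim30b) to 0.14 (Trim30a), and the interferon signalling genes lie lower, from -0.96 (Irf7) to 0.01 (Ifnar1).

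Other genes of the locus had lower mean levels than 7 of the members. Trim5, the other protein-coding gene between the members, had 8.68 and 9.72 TPM, below its close copies Trim12a and Trim12c. Of the 31-base words of Trim12c, 38.7% also occur in Trim5. Of those of Trim5, 53.3% occur in another gene, so the level of Trim5 also depends on how shared reads were assigned. Trim6, just outside the cluster next to Trim34a, had 4.90 and 4.17 TPM. Trim30e-ps1, a pseudogene of the Trim30 family beyond Trim30d, had 0 counts in both libraries, which allows up to 0.0960 and 0.112 TPM by the limit of 3 counts.

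Gm16464, a processed pseudogene inside Trim30d on the same strand, had 23.13 and 20.01 TPM from expected counts of 578 and 432. Unspliced RNA of Trim30d would also cover this stretch, so its reads cannot be told apart from those of Gm16464 with certainty. Gm47248, annotated antisense to the end of Trim34a, had 0 expected counts in replicate 1 and 61.8 in replicate 2. It shares sequence with Trim34a, 21.4% of whose 31-base words occur in it when both strands are searched. The posterior SD of the Trim34a count in replicate 2 was 20.6, the largest of any member. Gm15133, antisense at the start of Trim12a, had 13 and 2 counts (0.89 and 0.13 TPM) but 6.02 and 5.39 TPM in the second quantification. Use of strand in counting is not given in the sources used here, so reads of the antisense genes Gm47248 and Gm15133 cannot be told apart from those of Trim34a and Trim12a with certainty. The remaining genes between the members, the pseudogene Gm45471 and the small nuclear RNA genes Gm24846, Gm27995 and Gm25405, had 0 counts in both libraries.

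Other TRIM genes were taken by symbol, as those starting with Trim and a digit. Family genes under other symbols are thus not counted, while the pseudogene Trim30e-ps1 is. Among the genes so named, the members held a large part of the RNA, and the highest levels. Of 61 other TRIM genes, 30 had at least 1 TPM in both libraries, against 44.4% of protein-coding genes. Another 26 were below 1 TPM in both, and the median of the 61 was 1.08 TPM. The 8 members held 50.3% ± 0.0177 of the summed TPM of all 69 TRIM genes, and 47.6% ± 1.32 in the second quantification. Trim30a and Trim30d were the 2 highest TRIM genes in both libraries and both quantifications. By mean gene-level TPM Trim34a was 4th and Trim12a 5th, although Trim14 was above Trim12a in replicate 1 (61.25 against 59.15). By the mean of the second quantification Trim14 was 4th, Trim12a 5th and Trim34a 6th.

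The highest TRIM genes outside the cluster were Trim25, the ligase that acts on the RNA sensor RIG-I, at 89.9 ± 12.7 TPM, and Trim26 at 55.0 ± 0.325. Trim14 followed at 52.0 ± 13.2, Trim21, the cytosolic antibody receptor, at 42.0 ± 4.48, and Trim28, the KAP1 corepressor, at 29.8 ± 9.48. Of the 29 other TRIM genes whose mean count reached 100, 1 passed a log2 ratio of 1 between the replicates, against 2.00% of 10198 genes. This was Trim7, at 1.27 and a level of 1.62 and 2.92 TPM, named because it is the only one. In the second quantification Trim7 did not pass, with a log2 ratio of 0.79.

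Genes of the TAK1 complex and of ubiquitin transfer, through which Trim30a is known to act, were all present. In both libraries 14 of 14 reached 1 TPM, against 44.4% of protein-coding genes, and their median was 17.2 TPM. Among the highest were Ube2d3, a ubiquitin-conjugating enzyme, at 84.7 ± 7.71 and Ubb, a polyubiquitin gene, at 66.5 ± 13.4. Of the adaptors that Trim30a targets, Tab2 had 41.5 and 43.7 TPM and Tab3, the lowest of the list, 4.02 and 3.62. Trim30a RNA was thus higher than that of either adaptor in both libraries. Between the replicates 0 of these 14 genes passed a log2 ratio of 1, against 2.00% of 10198 genes, and their median was 0.15.

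Interferon signalling genes, which control many TRIM genes, were high as well. Of 12 genes, 11 had at least 1 TPM in both libraries, against 44.4% of protein-coding genes, and the median of the list was 53.2. Irf7, a transcription factor that amplifies interferon production, had 507.18 and 255.07 TPM, and Stat2, which carries the signal of type I interferon receptors to the nucleus, had 294.76 and 214.16. Ifnb1, which encodes interferon beta, was the lowest at 3.34 and 0.69. Of the 11 genes whose mean count reached 100, 10 had a log2 ratio below 0, and the median was -0.43, although 0 passed an absolute value of 1. Over all 10198 genes the median was -0.01 and 2.00% passed. Of the 7 members whose mean count reached 100, 6 were below 0, and 5 in the second quantification. The interval of Trim12c, 1 of the 6, reached 0.01. The share of all genes below 0 was not computed, so neither list's count below 0 has a background. Trim30a, with a log2 ratio of 0.14, lay above all 11 interferon signalling genes. Trim30d, Trim12c, Trim12a and Trim34a, from -0.05 to -0.15, lay above each of these but Ifnar1 (0.01). The counting intervals of Trim12a (-0.18 to -0.01) and Trim34a (-0.22 to -0.08) include the ratio of Irf9 (-0.17). In the second quantification Trim34a (-0.22) lay below Irf9 (-0.18) and Jak1 (-0.20). Trim30c, at -0.25, and Trim30b, at -0.63, lay further within their range. The 8 macrophage markers had a median ratio of -0.36 on the same scale, with 1 of them, Fcgr1, past an absolute value of 1 at -1.04, and their part in the difference was not tested.

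Windows around the annotated starts were searched for short motifs, since 7 of the members were expressed together. RefSeq (GRCm38.p6) windows of 250 bases before to 50 bases after the start were found for all 8 members. The motif GAAANNGAA, the core of the interferon-stimulated response element to which STAT and IRF proteins bind, was present on either strand in 6 of 8 members and in 8.56% of 32851 windows of all genes. The matches stood 35 bases before the start of Trim30a, 40 before that of Trim30d, 28 before that of Trim12c and 211 before that of Trim34b, and 11 bases after the starts of Trim12a and Trim34a. RefSeq also lists a second start of Trim30a, at 104446125, with a match 3 bases after it. Trim30b and Trim30c had none in their windows.

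The 29 bases around these matches are shown because they are alike within the Trim30 and Trim12 families. For each family the stretch of the first gene is followed by its best match without gaps in the windows of the others. All are written in the direction of the gene, with capitals on the 9 positions of the motif, which reads GAAANNGAA on the opposite strand.

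Trim30a, chr7:104465210-104465238, minus strand: gttctttagtTTCTTTTTCtcagttcctg
Trim30d, chr7:104507871-104507899, minus strand: gttctttagtTTCTTTTTCtcagttcctg
Trim30c, chr7:104400896-104400924, minus strand: gttctgtggtTCCTTTTTCtcagttccac
Trim12a, chr7:104315466-104315494, minus strand: gagttgtggtTTCTGTTTCatttccagag
Trim12c, chr7:104353359-104353387, minus strand: gagttgtggtTTCTGTTTCatttccagct
Trim34a, chr7:104244458-104244486, plus strand: ggtttggagtTTCAGTTTCttttctctgc

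Trim30a and Trim30d, the 2 highest members, were identical over all 29 bases. The Trim30c stretch, 136 bases before its RefSeq start, matched at 24 of 29 bases, and 1 of its differences lay in the 9 motif positions, so the motif was not met there. Trim12a and Trim12c matched at 27 of 29 with an unchanged motif. Trim5 carries the Trim12a stretch unchanged, at 29 of 29 bases, with the motif 48 bases before its start. It had the lower level of 8.68 and 9.72 TPM given above, which depends on how shared reads were assigned. For Trim30b the best match reached only 15 of 29 bases and for Trim34b 16 of 29, so these are not shown.

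The windows depend on where a start is annotated. RefSeq and GENCODE starts are the same base for Trim30a, Trim30d, Trim34a and Trim34b, and 13 to 59 bases apart for Trim12c, Trim12a and Trim30c. The GENCODE start of Trim12a, 104315466, is the last base of its 29-base stretch above. Its motif, after the RefSeq start, thus lies before the GENCODE start. For Trim30b the RefSeq start lies 11.2 kb inside the GENCODE gene, and the window searched is the RefSeq one. Trim34a and Trim34b, which share 98.8% of their coding bases, had unlike sequences before their starts. Whether any of the sequences shown bears on level was not tested, and the levels of this pair depend on how shared reads were assigned. Stretches are shown from 80 bases before the start to 20 bases from it, with the motif in capitals. The match of Trim34b, 211 bases before its start, lies outside the stretch shown.

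Trim34a, chr7:104244377-104244476, plus strand: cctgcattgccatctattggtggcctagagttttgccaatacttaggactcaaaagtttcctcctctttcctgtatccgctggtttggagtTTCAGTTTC
Trim34b, chr7:104329391-104329490, plus strand: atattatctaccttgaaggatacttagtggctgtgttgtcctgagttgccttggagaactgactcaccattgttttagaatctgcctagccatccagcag
Trim30a, chr7:104465174-104465273, minus strand: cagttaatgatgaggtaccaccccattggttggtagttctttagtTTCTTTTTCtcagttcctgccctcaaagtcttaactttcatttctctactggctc
Trim30d, chr7:104507830-104507929, minus strand: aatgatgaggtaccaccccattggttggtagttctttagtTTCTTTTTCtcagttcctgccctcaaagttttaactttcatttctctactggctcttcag

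The Trim30a and Trim30d windows are shown beside them as a pair that is alike in sequence. The other motifs searched on both strands were rarer among the members. The STAT motif TTCNNNGAA, which reads the same on both strands, was in 1 of 8 (Trim30c, 62 bases before the start) against 8.30% of all windows. GAGGAAGT, a motif of the myeloid factor PU.1, was in 2 of 8 (Trim12a, 56 bases before, and Trim12c, 96 bases before) against 3.20%, and TATAAA in 1 of 8 (Trim30d, 232 bases before) against 13.6%. A match describes letters in a window, and binding of these factors was not measured here.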

How the data were processed

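The authors deposited, per library, gene-level tables with expected counts, TPM and FPKM, transcript tables with the same units and each isoform's percent of its gene, and a second transcript table with estimated counts and TPM. The first set was made from transcriptome alignments and the second directly from reads, on mm10 with GENCODE release 21, per the notes deposited with the files. For programs, versions and strand use, the sources used here give nothing. Expected counts summed to 22907877 and 18612405. Entries naming no annotated gene held 1.01% and 0.336% of counts and were left out of library sizes. The second set has no value for 86 genes.

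Expected counts were rounded, scaled with TMM (edgeR 4.0.16) and compared as log2 ratios with a prior count of 0.5 and Clopper-Pearson 95% intervals. These and the floor of 3 counts cover counting error only. DESeq2 1.42.0 size factors were an alternative. The calculation was tested on simulated data. With 1 group, no p-value was computed. The members, gene lists, motifs and settings were chosen with earlier results of these data known. The rule for named genes took all 8 members, the 3 highest and the lowest of each list (of TRIM genes the 5 highest) and the protein-coding genes and pseudogenes between the members; others named were chosen after their values were seen, and 2 genes the rule takes are not reported here. Planned protein identity was replaced by identity of coding bases from GENCODE transcripts (global alignment, Biopython 1.88). Promoter windows are from RefSeq (GRCm38.p6).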

Additional observations from a re-analysis of the deposited data

How the results depend on the processing

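The count of 7 members at 1 TPM or more held in both quantifications, by FPKM, with coding transcripts only, at thresholds of 0.5 and 5 TPM and without either library; TPM rescaled to protein-coding genes gave 8. The members' sum moved with the denominator, from 508.2 TPM to 292.1 in the second quantification, 651.9 as FPKM, 1786 rescaled to protein-coding genes and 458.9 with protein-coding transcripts only. It was 494.6 without replicate 1 and 521.8 without replicate 2. The Trim30a share of TPM or FPKM, as the mean of the libraries used, stayed between 35.7% and 38.9% in every alternative run. With protein-coding transcripts only it was 38.3% ± 3.20, so the libraries there did not both lie within this range. FPKM and rescaled TPM could not move the share, since they multiply all members of a library by the same factor. Of the members' expected counts, which do not account for gene length, Trim30a held 43.1% in replicate 1 and 48.2% in replicate 2. The count of members apart between the replicates was 0 in all 7 settings, with 198 to 215 of 10198 genes apart under other scalings against 204 as reported, 330 of 11895 with a mean count of at least 50 and 501 of 15106 in the second quantification. The log2 ratio left its counting interval for 5 of 8 members in the second quantification and for 1 with library totals, and that of Trim12c went from -0.07 to 0.07 in the second quantification; the cause was not tested. No paired analysis was possible because there is 1 group. Counts of 23.1 and 16.4 limit what can be said of Trim34b.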
